A study of Mus musculus with 17 samples.

Results

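Glutamate, GABA and glycine carry most of the fast signalling between neurons, and the subunits of their receptors were followed here through the RNA-seq, H3K27ac CUT&RUN, ATAC-seq and scRNA-seq tables of a mouse model of Parkinson's disease (PD). Members were chosen by symbol alone. They are the genes of the AMPA (Gria), kainate (Grik), NMDA (Grin), delta (Grid) and metabotropic glutamate (Grm) receptors, of the GABA-A (Gabr) and GABA-B (Gabbr) receptors and of the glycine receptors (Glra and Glrb). The RefSeq mouse gene table holds 51 symbols that meet this rule, and 48 of them are among the 20328 genes of the RNA-seq table. Gabra6, Gabrr3 and Grm6 are not in that table, in which every listed gene has at least 1 read in each library. All 48 listed members passed the filter on low counts.

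Mice of 3 groups were compared, and all of them were wild-type females of the outbred ICR strain. Sham mice are the controls. The 6-OHDA-induced PD model received 6-OHDA, a neurotoxin taken up by catecholamine neurons, at 10 µg/µl into the substantia nigra of one side at 8 weeks of age, and then saline. The NDST3-treated PD model received the same lesion, and 5 days later 2 µl of an AAV9 vector that expresses human NDST3 from the CMV promoter, which is active in many cell types, into the same nucleus. RNA-seq was made from 2 sham libraries, 1 library of the 6-OHDA-induced PD model and 2 libraries of the NDST3-treated PD model, with the tissue labelled as brain. No label states that the libraries came from separate animals, so the p-values measure the spread between these libraries, which may be technical.

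Ionotropic receptors are channels built from several subunits. AMPA and kainate receptors carry fast excitation, NMDA receptors need glutamate together with glycine or D-serine and admit calcium, and GABA-A and glycine receptors open chloride channels that inhibit mature neurons. Metabotropic glutamate receptors and GABA-B receptors act through G proteins, often on the release of transmitter. In the substantia nigra, dopaminergic neurons are driven by glutamate inputs and held back by dense GABA inputs from the striatum, the globus pallidus and neighbouring nigral neurons.

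The libraries held 51003699 to 70533326 counts, and the members together took 0.507% and 0.582% of the counts in sham, 0.282% in the 6-OHDA library and 0.517% and 0.527% with NDST3. The 6-OHDA library also stood apart in its cell markers. The summed level of 10 neuron markers was 7152 and 7853 CPM (counts scaled to library size by TMM) in sham, 2602 in the 6-OHDA library and 6229 and 5392 with NDST3, and all 10 were called lower after the lesion. The 10 markers of dopaminergic neurons summed to 954 and 915 CPM in sham, 170 after the lesion and 297 and 280 with NDST3. Aldh1a1 made up most of the sum after the lesion and with NDST3, at 142 CPM and at 166 and 185 CPM. It had 207 and 213 CPM in sham. Th had 115 and 135 CPM in sham, 2.15 after the lesion and 11.5 and 8.03 with NDST3. Slc6a3 had 228 and 243, 0.155, and 6.38 and 1.34 CPM in the same order. By contrast, 8 astrocyte markers summed to 4404 and 3267 CPM in sham, 10851 in the 6-OHDA library and 5508 and 6512 with NDST3. Gfap and Aqp4 made up most of the sum in the 6-OHDA library, with 6237 and 2026 CPM. After the lesion 5 of the 8 were called higher and 1, Aldoc, lower. The 7 microglia markers summed to 486 and 375 CPM in sham, 2605 in the 6-OHDA library and 1000 and 1463 with NDST3. All 7 were called higher after the lesion. The second NDST3 library differed from all others in 5 choroid plexus markers, with a sum of 1123 CPM against 20.6 to 61 CPM. In bulk tissue, fewer cells of a type and less RNA per cell cannot be told apart, and the part of these shifts in the changes below was not tested.

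The first comparison asked how receptor subunit expression differed between the 6-OHDA-induced PD model and sham. The log2 fold change was below 0 for 45 of the 48 members, against 9682 of the 19300 genes tested. In those 45 members the 6-OHDA library was below both sham libraries, a count not made over all genes. Of these, 32 were called lower by edgeR's quasi-likelihood test at an adjusted p under 0.05, against 17.1% of the 19300 genes tested. No member was called higher, against 18.8% of all genes, and 37 members had an unadjusted p under 0.05. The median log2 fold change was -0.95 over the members and -0.002 over all genes tested. By a rule of at least 2-fold with a raw p under 0.05, 21 members were lower (background 10.1%) and 0 higher (background 14.4%). Calls by adjusted p went to 0 of 48 when either sham library was left out of the fit, whereas the 2-fold rule then gave 24 members without sham replicate 1 and 16 without sham replicate 2. With 1 library, the spread of the 6-OHDA group is unknown and was taken from sham and NDST3.

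**Figure D1:**
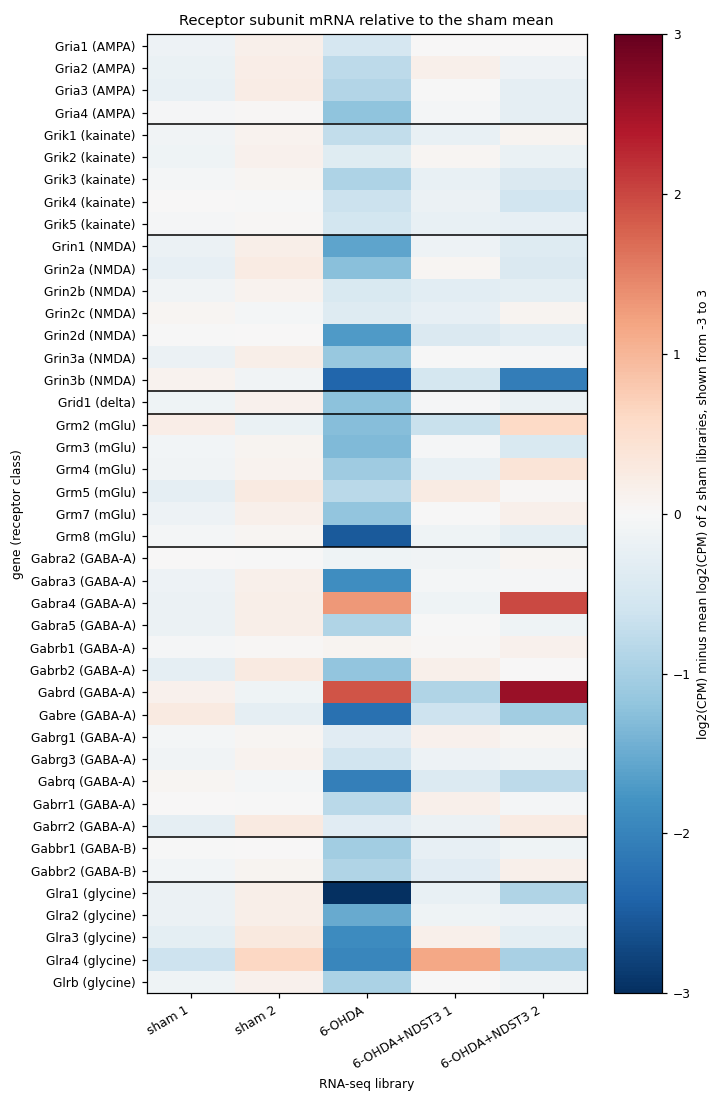
Level of 43 of the 48 receptor subunit mRNAs (rows, in blocks by receptor class) in the 5 RNA-seq libraries (columns), as log2(CPM) minus the mean of the 2 sham libraries, with the colour scale ending at -3 and 3. The 6-OHDA column is blue for 40 of them, while Gabra4 and Gabrd are red there and in the second NDST3 library.

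Among AMPA receptor genes, which encode the main channels of fast excitation, all 4 were lower after the lesion and 3 were called. Gria1 was the most abundant per length, with a mean of 33.6 FPKM (fragments scaled to transcript length and library size) over the 5 libraries, and had the smallest difference. It stood at 198 and 248 CPM in sham, 155 CPM in the 6-OHDA library and 224 and 223 CPM with NDST3 (log2 fold change after the lesion -0.52, standard error 0.16, adjusted p = 0.0635 from edgeR). Gria4, Gria3 and Gria2 fell by 1.20, 0.89 and 0.80 on the log2 scale. Gria2, whose edited subunit makes AMPA receptors nearly impermeable to calcium, had 0.44 to 0.47 times the FPKM of Gria1 in sham, 0.38 times in the 6-OHDA library and 0.40 to 0.50 times with NDST3.

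Kainate receptor genes had smaller differences. Grik3, Grik1 and Grik5 fell by 0.93, 0.75 and 0.55, and Grik4 and Grik2 were not called. Grik5, a subunit that needs a partner such as Grik2 to form a channel, was the most abundant of the class at 18.5 FPKM, with 114 and 119.6 CPM in sham, 80.0 CPM in the 6-OHDA library and 101 and 98.7 CPM with NDST3. Grik2 differed least, with 46.7 and 56.4 CPM in sham, 40.1 CPM after the lesion and 53.7 and 44.7 CPM with NDST3 (log2 fold change -0.36, adjusted p = 0.179 from edgeR). No kainate receptor gene reached a 2-fold difference.

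NMDA receptor subunits separated by type. Grin1, the obligate subunit, had 340 and 429 CPM in sham, 128 CPM in the 6-OHDA library and 341 and 291 CPM with NDST3. By edgeR it fell by 1.59 on the log2 scale (adjusted p = 0.009, standard error 0.21), so that the 6-OHDA library lay below the other 4 with no overlap. Grin2d, known from midbrain and brainstem neurons and from interneurons, had 60.8 and 61.6 CPM in sham, 18.8 CPM after the lesion and 45.3 and 49.2 CPM with NDST3, a fall by 1.70 (adjusted p = 0.00823 from edgeR). Grin2a and Grin3a fell by 1.27 and 1.14, and Grin2b, which like Grin2a sets the kinetics of the channel, by 0.47. The ratio of Grin2a to Grin2b in FPKM was 0.96 and 1.17 in sham, 0.63 in the 6-OHDA library and 1.40 and 1.00 with NDST3. Grin2c, which astrocytes of the forebrain and thalamic neurons also express, differed least, with 50.7 and 46.5 CPM in sham, 37.4 CPM after the lesion and 40.8 and 51.5 CPM with NDST3 (log2 fold change -0.38, adjusted p = 0.153 from edgeR). Grin3b was low in every library, between 0.503 and 2.83 CPM.

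Delta receptors bind cerebellins rather than glutamate at synapses. Grid1 had 68.6 and 82.5 CPM in sham, 32.1 CPM in the 6-OHDA library and 73.1 and 66.0 CPM with NDST3, a fall by 1.24 (adjusted p = 0.00902 from edgeR). The 6-OHDA library was the lowest of the 5 for this gene. Of 7 genes for the ligands of these receptors, a list that includes the cerebellins, 5 were called lower after the lesion and 4 higher with NDST3. The largest falls were those of Cbln4, Cbln2 and Cbln1, with log2 fold changes of -2.08, -1.93 and -1.84.

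All 7 metabotropic glutamate receptor genes had a log2 fold change below 0, and 4 were called lower. Grm8, a receptor that restrains transmitter release, had 17.4 and 19.1 CPM in sham, 3.18 CPM in the 6-OHDA library and 16.7 and 14.7 CPM with NDST3, a log2 fold change of -2.52 (standard error 0.19, adjusted p = 0.00823 from edgeR). Its fall was the largest outside the glycine receptors among called members. Grm3, Grm7 and Grm4 fell by 1.32, 1.20 and 1.07. Grm4, the most abundant of the class at 12.04 FPKM, had 59.3 and 68.4 CPM in sham, 30.4 CPM after the lesion and 54.3 and 82.7 CPM with NDST3.

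GABA-B receptors are obligate pairs, and both genes fell. Gabbr1 was the most abundant member of all per length, at a mean of 141 FPKM. It had 827 and 852 CPM in sham, 408 CPM in the 6-OHDA library and 706 and 764 CPM with NDST3, a fall by 1.04 (adjusted p = 0.00912 from edgeR). Gabbr2 had 277 and 315 CPM in sham, 159 CPM after the lesion and 234 and 328 CPM with NDST3, a fall by 0.90 (adjusted p = 0.0404 from edgeR). The ratio of Gabbr1 to Gabbr2 in FPKM stayed between 2.78 and 3.59 across the 5 libraries.

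Glycine receptor genes held the largest differences. Glra1, the alpha subunit of adult glycine receptors in the brainstem and spinal cord, had 20.0 and 25.4 CPM in sham, 1.12 CPM in the 6-OHDA library and 19.2 and 12.1 CPM with NDST3. It was 20.2-fold lower after the lesion (log2 fold change -4.33, standard error 0.43, adjusted p = 0.00823 from edgeR). Glra3 had 29.4 and 43.8 CPM in sham, 9.62 CPM after the lesion and 40.0 and 29.5 CPM with NDST3, and Glra2, the alpha subunit of the immature brain, had 24.3 and 31.3, 9.62, and 25.2 and 24.6 CPM in the same order. The 2 genes fell by 1.93 and 1.53. Glrb, the beta subunit that anchors glycine receptors to gephyrin, fell by 0.96 from 255 and 302 CPM to 143 CPM and stood at 274 and 257 CPM with NDST3. Thus the FPKM ratio of Glra1 to Glra2 was 1.07 and 1.06 in sham, 0.15 in the 6-OHDA library and 0.99 and 0.64 with NDST3. Glra4 was at 1.46 and 3.46 CPM in sham, 0.581 CPM after the lesion and 5.04 and 1.14 CPM with NDST3 and was not called. It shares 25627 bases with another annotated gene, BC065397, so its counts are uncertain.

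Markers of hindbrain or serotonin neurons were, like Glra1, lowest in the 6-OHDA library. The 4 tested markers summed to 323 and 134 CPM in sham, 2.52 CPM in the 6-OHDA library and 147 and 117 CPM with NDST3. Most of the sum in sham came from the serotonin neuron genes Tph2 (165 and 66.6 CPM) and Slc6a4 (124 and 46.3 CPM). Between the sham libraries, the sum was lower in the second, where Glra1 was higher. Also on the list is Slc6a5, the neuronal glycine transporter, which fell by 4.22 on the log2 scale from 28.5 and 18.7 CPM to 1.26 CPM. The 7 tested markers of hypothalamic neurons summed to 10.3 and 14.4 CPM in sham, 175 CPM in the 6-OHDA library and 11.3 and 11.2 CPM with NDST3. Of these, 3 were called higher after the lesion and 0 lower, and Pmch and Hcrt made up most of the sum in the 6-OHDA library, with 100.4 and 58.6 CPM, while Sim1 and Trh had log2 fold changes of -0.76 and -0.59. The part of these region markers in the glycine receptor differences was not tested.

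GABA-A receptor genes were the most divided class, with 9 of 16 called lower and 7 not called. Gabrb2, a beta subunit of the common synaptic receptors, had 313 and 457 CPM in sham, 166 CPM in the 6-OHDA library and 423 and 380 CPM with NDST3, a fall by 1.22. The 6-OHDA library lay under the other 4.

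The largest falls of the class were in 3 genes of the X chromosome. Gabra3, an alpha subunit of monoaminergic neurons, had 118 and 147 CPM in sham, 36.3 CPM in the 6-OHDA library and 126 and 129 CPM with NDST3, a fall by 1.86 (adjusted p = 0.00823 from edgeR). Gabrq, the theta subunit, had 27.5 and 25.3 CPM in sham, 6.41 CPM after the lesion and 19.9 and 15.3 CPM with NDST3, a fall by 2.04. Gabre, the epsilon subunit, had 4.91 and 3.39 CPM in sham, 0.871 CPM after the lesion and 2.67 and 1.98 CPM with NDST3, a fall by 2.25. Epsilon and theta are rare subunits known from monoaminergic and hypothalamic neurons.

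GABA-A genes sit in groups, taken here as genes of the class on 1 chromosome whose starts are at most 2000000 bases apart, a grouping made after the values were seen. On chromosome X all 3 genes fell, by 1.86 to 2.25 on the log2 scale. On chromosome 7, Gabrg3 and Gabra5 fell, by 0.58 and 0.90. Gabra5 shares bases with another annotated gene, so its counts are uncertain there. On chromosome 5, none of Gabrg1, Gabra2, Gabra4 and Gabrb1 was called, with log2 fold changes of -0.35, -0.14, 1.30 and 0.08. The rho subunit genes Gabrr1 and Gabrr2 on chromosome 4 were near the limit of detection, at 0.349 to 1.78 CPM, and were not called.

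**Figure D2:**
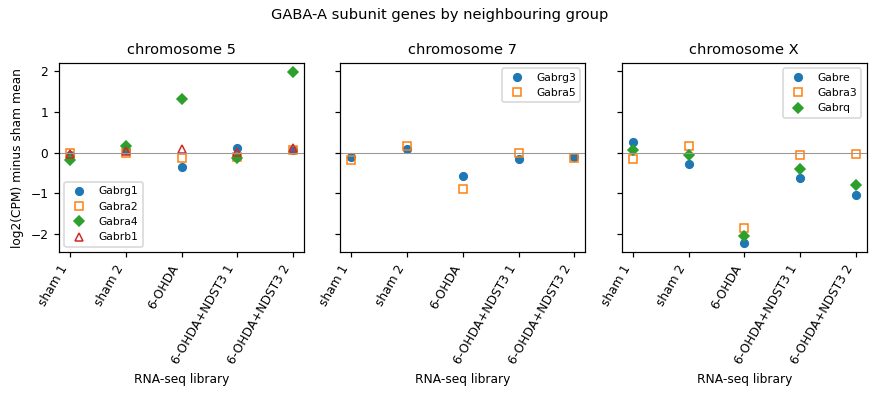
log2(CPM) minus the mean of the 2 sham libraries (vertical axis) for GABA-A subunit genes in the 5 RNA-seq libraries (horizontal axis), 1 panel per chromosome and 1 symbol per gene. In the 6-OHDA library the genes shown for chromosomes 7 and X lie below both sham libraries, whereas on chromosome 5 Gabrb1 stays near 0 and Gabra4 lies above.

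Gabra4 and Gabrd did not follow the class. The alpha4 and delta subunits assemble into GABA-A receptors outside the synapse that carry tonic inhibition, best known in thalamus, striatum and dentate gyrus. Gabra4 had 31.1 and 39.6 CPM in sham, 87.0 CPM in the 6-OHDA library and 32.1 and 139 CPM with NDST3 (log2 fold change after the lesion 1.30, standard error 0.78, adjusted p = 0.249 from edgeR). Gabrd had 7.65 and 6.30 CPM in sham, 25.8 CPM in the 6-OHDA library and 3.73 and 41.6 CPM with NDST3 (log2 fold change 1.89, standard error 1.19, adjusted p = 0.269 from edgeR). Both genes were therefore high in the 6-OHDA library and the second NDST3 library and low in the other 3. Fitted on the sham and 6-OHDA libraries alone, both were called higher, with adjusted p = 0.00895 for Gabra4 and 0.00730 for Gabrd, so the spread between the NDST3 libraries decides the call. Prkcd, a marker of thalamic neurons looked up after these values were seen, had 69.9 and 42.0 CPM in sham, 267 CPM after the lesion and 22.7 and 310 CPM with NDST3. The whole list of 7 thalamic markers summed to 610 and 853, 508, and 691 and 1083 CPM. After the lesion 0 of the 7 were called higher and 2 lower, Calb2 and Slc17a6 at -2.39 and -1.73. Lhx9 and Tcf7l2 had log2 fold changes of -1.86 and -0.72, and Prkcd, Lef1 and Gbx2 of 2.25, 0.75 and 0.22. The part of thalamic tissue in the values of Gabra4 and Gabrd was not tested. Gabrd shares 6000 bases with Cfap74, which stood between 7.79 and 8.82 CPM in all 5 libraries.

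Gabrb1, which astrocytes express as well as neurons, was level, with 115 and 120 CPM in sham, 124 CPM in the 6-OHDA library and 119 and 127 CPM with NDST3 (log2 fold change 0.08, standard error 0.10, adjusted p = 0.560 from edgeR). The gene starts head to head with Gabra4 on chromosome 5, and the 2 genes overlap by 388 bases, so the counts of the shared stretch are uncertain where counting ignored strand. The promoter windows of both genes, 250 bases before to 50 bases after the start from RefSeq on GRCm38.p6, are shown because the pair shares a start region but not its pattern across libraries. RefSeq has 2 windows for Gabrb1, and the one beside Gabra4 is given. Capitals mark the GC box GGGCGG on either strand.
Gabra4, chr5:71658259-71658558, minus strand: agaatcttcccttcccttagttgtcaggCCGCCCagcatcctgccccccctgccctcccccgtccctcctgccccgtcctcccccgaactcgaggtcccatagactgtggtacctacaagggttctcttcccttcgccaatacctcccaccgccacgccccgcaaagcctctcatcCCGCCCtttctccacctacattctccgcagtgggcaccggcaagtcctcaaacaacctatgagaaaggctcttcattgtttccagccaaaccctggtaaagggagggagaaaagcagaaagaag
Gabrb1, chr5:71657671-71657970, plus strand: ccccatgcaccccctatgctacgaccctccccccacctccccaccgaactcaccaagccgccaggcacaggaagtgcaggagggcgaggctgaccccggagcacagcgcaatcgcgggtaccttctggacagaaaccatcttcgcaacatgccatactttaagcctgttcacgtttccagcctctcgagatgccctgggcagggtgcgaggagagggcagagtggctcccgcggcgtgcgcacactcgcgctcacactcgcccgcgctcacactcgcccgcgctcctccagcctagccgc

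The window of Gabra4 holds 2 GC boxes and that of Gabrb1 holds 0. Over the 42 promoter windows found for 35 of the 51 symbols, 52.4% hold a GC box, compared with 35.7% of all 32851 windows of the same length, and the median GC content was 59.3% against 52.7%. The CCAAT box (CCAAT on either strand, which cannot overlap a GC box by more than a few bases) was in 42.9% of member windows and 37.4% of all windows. These matches describe the letters of the windows only.

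Set against the neurons of the tissue, members differed on both sides. The 10 neuron markers had a median log2 fold change of -1.21 after the lesion and a range from -2.62 to -0.96. Of the 48 members, 18 lay below that median and 30 above it. Below it were the glycine receptor alpha subunits, Grm2, Grm3, Grm8, Grid1, Grin1, Grin2a, Grin2d, Grin3b, Gabrb2 and the GABA-A genes of chromosome X among others, and above it all kainate receptor genes, Grin2b, Gria1 to Gria4, Gabrg3, Gabra5 and the GABA-A genes of chromosome 5 among others.

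The second comparison asked how the NDST3-treated PD model differed from the 6-OHDA-induced PD model. It uses the same single 6-OHDA library as the first, so the 2 sets of differences share it and are not independent. Of the 48 members, 20 were called higher with NDST3 (background 9.06% of genes tested) and 0 lower (background 6.59%), and 34 had an unadjusted p under 0.05. The median log2 fold change was 0.88 over the members and 0.003 over all genes. By the 2-fold rule, 19 were higher (background 7.3%) and 0 lower (background 8.37%). Calls by adjusted p went to 0 without sham replicate 1, without sham replicate 2 or without NDST3 replicate 1, and to 22 without NDST3 replicate 2, while the 2-fold rule gave 17 to 21 members. DESeq2 called 33.

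Each of the 20 members called higher was also called lower after the lesion, but both calls rest on the same 6-OHDA library. This overlap was not counted over all genes. Glra1 had the largest difference, with a log2 fold change of 3.80 (standard error 0.42, adjusted p = 0.0320 from edgeR). Other large differences were those of Grm8 (2.31), Glra3 (1.85), Gabra3 (1.81), Gabrq (1.46) and Glra2 (1.37). By class, 4 of 5 glycine, 6 of 16 GABA-A, 3 of 7 NMDA, 3 of 7 metabotropic glutamate, 1 of 2 GABA-B, 1 of 5 kainate and 1 of 4 AMPA receptor genes were called higher, as was Grid1. The log2 fold change was above 0 for 45 of the 48 members, against 9686 of the 19300 genes tested. All 48 members were above the 6-OHDA library in the second NDST3 library and 44 in the first, counts not made over all genes.

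**Figure D3:**
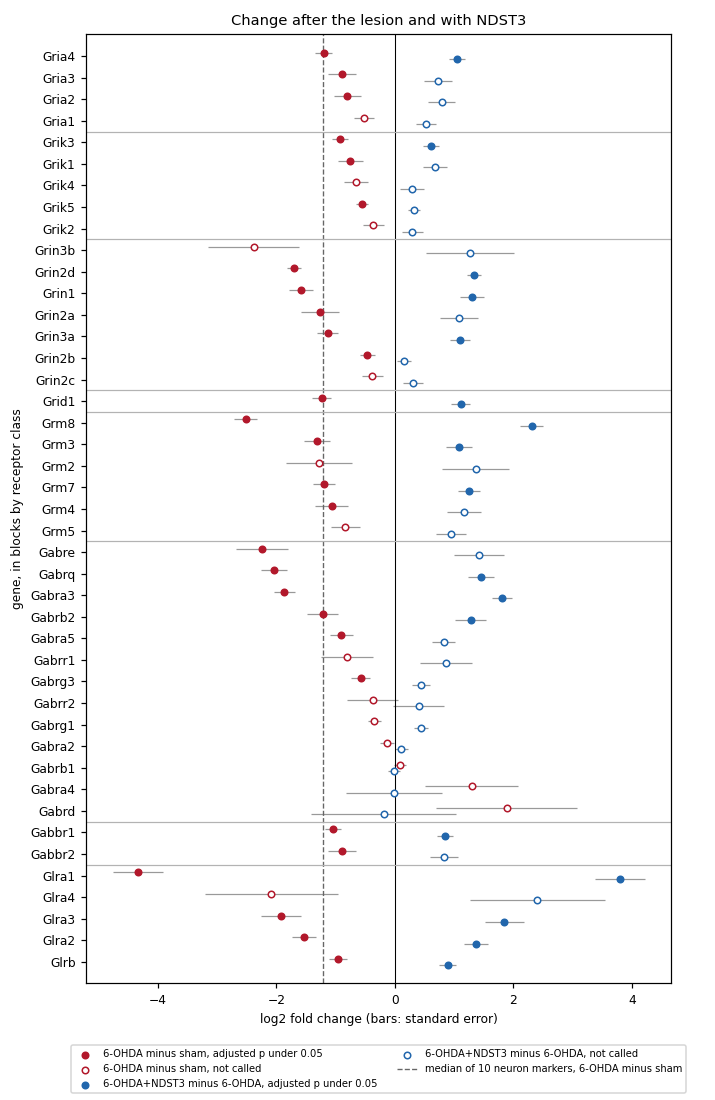
log2 fold change (horizontal axis) with its standard error (bars) for 43 of the 48 members (vertical axis, in blocks by receptor class), for 6-OHDA minus sham in red and 6-OHDA+NDST3 minus 6-OHDA in blue, with filled points where edgeR's adjusted p is under 0.05. The dashed line is the median of 10 neuron markers for 6-OHDA minus sham, at -1.21. Filled red points all lie left of 0 and filled blue points right of it.

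Grin2b, Gabra2 and Gabrb1 were the members with the smallest differences in this comparison apart from Gabra4 and Gabrd, with log2 fold changes of 0.15, 0.11 and -0.01, none of them called. Gabra4 and Gabrd had values of -0.02 and -0.19, which average 2 unlike libraries. Without NDST3 replicate 1 they became 0.68 and 0.69, not called, and without NDST3 replicate 2 they became -1.47 and -2.82, both called lower (adjusted p = 0.0305 and 0.0296 from edgeR).

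The third comparison asked whether the NDST3-treated PD model differed from sham. No member was called in either direction by edgeR (background 0% of genes tested in both), and 6 of 48 had an unadjusted p under 0.05, compared with 14.2% of all genes. DESeq2 and limma also called 0. By the 2-fold rule 0 members were higher (background 4.78%) and 0 lower (background 1.08%). The median log2 fold change was -0.07 over the members and 0.01 over all genes. Values ranged from -1.11 for Grin3b to 1.70 for Gabrd. Grin3b had 2.83 and 2.43 CPM in sham and 1.81 and 0.620 CPM with NDST3. The next lowest were Gabre and Gabrq, at -0.83 and -0.58, and the next highest were Gabra4 and Glra4, at 1.28 and 0.32. Without NDST3 replicate 1, Gabra4 and Gabrd were called higher, at 1.98 and 2.58. With all 5 libraries, the value was below 0 for 34 of the 48 members, against 9349 of the 19300 genes tested. These included all 7 NMDA and all 5 kainate receptor genes, between -1.11 and -0.03. By contrast, 5 of 7 metabotropic glutamate receptor genes were above 0, and the 16 GABA-A genes had 7 above and 9 below. A p that misses the threshold does not show that the groups are alike.

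By library, 43 members were nearer to the sham mean than to the 6-OHDA library in NDST3 replicate 1 and 40 in replicate 2. The 2 NDST3 libraries lay inside the range of the 2 sham libraries for 23 and 14 members. Neither count was made over all genes, and the first uses the single 6-OHDA library again. The summed FPKM of the 16 GABA-A genes was 300.0 and 356 in sham, 173 in the 6-OHDA library and 336 and 354 with NDST3, and that of the 7 NMDA genes was 112 and 129, 47.4, and 107 and 98.8.

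Genes that make, carry and anchor these receptors and their transmitters were counted from 7 lists with 86 genes in all. After the lesion 44 were called lower (background 17.1%) and 5 higher (background 18.8%), with a median log2 fold change of -0.72. With NDST3 against the lesion, 29 were called higher (background 9.06%) and 2 lower (background 6.59%), with a median of 0.52. Both sets of calls went to 0 without either sham library. The counts for single lists are read against the same shares. The list of GABA and glycine synthesis and transport had 8 of 11 genes lower, among them Slc32a1, the vesicular transporter of both transmitters, and Gad1, which makes GABA, at -2.00 and -1.60. In the chloride list 2 of 5 were called lower. Slc12a5 (KCC2), which keeps neuronal chloride low, had 728 and 867 CPM in sham, 184 CPM after the lesion and 708 and 529 CPM with NDST3.

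Auxiliary subunits of glutamate receptors had 9 of 16 genes lower, led by the AMPA receptor partners Cacng3, Gsg1l and Cacng2 at -1.88, -1.85 and -1.36. The excitatory scaffold had 8 of 21 lower, led by Dlgap2, Dlg2 and Grip1, and 1 higher, Homer3. In glutamate transport and metabolism 4 of 11 were called lower, led by the vesicular transporter Slc17a8, Slc1a6 and Slc17a6, and the astrocyte transporter Slc1a3 was called higher. Inhibitory scaffold and GABA-B partners had 9 of 16 lower, led by Kctd8 and Iqsec3 at -1.97 and -1.92, and 3 higher, Kctd12, Kctd12b and Gabarap. Kctd12, an auxiliary subunit of GABA-B receptors, had 77.7 and 83.9 CPM in sham, 290 CPM in the 6-OHDA library and 128 and 149 CPM with NDST3, opposite in direction to Gabbr1 and Gabbr2.

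H3K27ac, a histone mark of active promoters and enhancers, was listed in 26 regions within 1000 bases of the starts of 17 members, out of 11326 regions used. Each group has 1 value made from 2 libraries, so no spread is known and no test was made. The median signal over all regions was 15.04 in sham, 16.4 after the lesion and 22.9 with NDST3, so a rise with NDST3 is seen over the whole table. On the scale of log2 ratios with a pseudocount of 1, the members' median was 0.16 for the lesion against sham (all regions 0.13), 0.36 for NDST3 against the lesion (all regions 0.39) and 0.58 for NDST3 against sham (all regions 0.53). After each group was divided by its median over all regions, the members' medians were 0.04, -0.10 and -0.01.

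Against sham, 5 member regions were at least 2-fold higher after the lesion (background 7.77%) and 0 lower (background 4.52%). With NDST3 against the lesion, 2 were higher (background 11.1%) and 0 lower (background 0%). With NDST3 against sham, 7 were higher (background 25.7%) and 0 lower (background 0.636%).

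**Figure D4:**
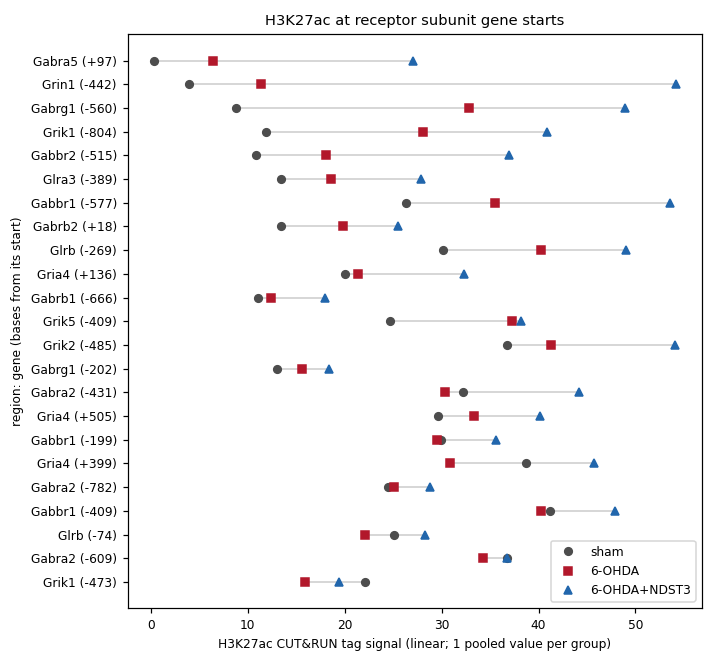
H3K27ac CUT&RUN tag signal (horizontal axis, linear, 1 pooled value per group) at 23 of the 26 regions near members (vertical axis, with the distance of each region from the gene start in bases), for sham (circles), 6-OHDA (squares) and 6-OHDA+NDST3 (triangles). The regions of Gabra5 and Grin1 span the widest ratios, and the NDST3 value is the highest of the 3 in each region shown except that of Grik1 at -473.

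The regions of Gabra5 and Grin1 had the largest ratios. Gabra5, the alpha subunit of extrasynaptic receptors of the hippocampus, had a signal of 0.31 in sham, 6.45 after the lesion and 27.1 with NDST3 at 97 bases after its start. Grin1 had 3.94, 11.4 and 54.2 at a distance of -442 bases from its start. These 2 were the regions at least 2-fold higher with NDST3 than after the lesion, and they remained 2-fold higher after median scaling. In RNA-seq, by comparison, Gabra5 had 25.2 and 32.0 CPM in sham, 15.3 CPM after the lesion and 28.3 and 25.9 CPM with NDST3, so signal and mRNA differed in opposite directions between the lesion and sham for both genes.

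Gabrg1 had 8.81, 32.8 and 48.9 at -560 bases and 13.04, 15.7 and 18.4 at -202 bases, in sham, after the lesion and with NDST3. Grik1 also had unlike regions, with 11.9, 28.1 and 40.9 at -804 and 22.1, 15.9 and 19.4 at -473. At least 2-fold higher with NDST3 than in sham were also the regions of Gabbr2 (10.9, 18.1 and 37.0) and Glra3 (13.4, 18.6 and 27.9). The 3 regions of Gabra2, by contrast, stayed between 24.4 and 44.2 in all groups, as its mRNA stayed between 91.4 and 105 CPM.

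Promoter windows are shown for Glrb and Gabbr1, which have an H3K27ac region within 250 bases before their starts, at -74 and -199. Gabrg1, with a region at -202, also meets this, and its window, not shown, holds 0 GC boxes. The windows come from RefSeq on GRCm38.p6, and capitals again mark GC boxes, of which Glrb holds 2 and Gabbr1 3. Region positions are given only as distances from the gene start, because the coordinates in the CUT&RUN and ATAC-seq tables did not match GRCm38, with 3.79% and 10.7% of regions within 2000 bases of the GRCm38 start of their gene.
Glrb, chr3:80913611-80913910, minus strand: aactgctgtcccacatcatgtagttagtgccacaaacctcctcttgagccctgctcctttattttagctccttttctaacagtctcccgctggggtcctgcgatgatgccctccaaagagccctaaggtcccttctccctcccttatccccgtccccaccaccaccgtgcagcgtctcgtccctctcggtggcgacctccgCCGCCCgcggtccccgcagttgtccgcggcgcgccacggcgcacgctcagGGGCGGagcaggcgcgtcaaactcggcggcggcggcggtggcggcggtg
Gabbr1, chr17:37045716-37046015, plus strand: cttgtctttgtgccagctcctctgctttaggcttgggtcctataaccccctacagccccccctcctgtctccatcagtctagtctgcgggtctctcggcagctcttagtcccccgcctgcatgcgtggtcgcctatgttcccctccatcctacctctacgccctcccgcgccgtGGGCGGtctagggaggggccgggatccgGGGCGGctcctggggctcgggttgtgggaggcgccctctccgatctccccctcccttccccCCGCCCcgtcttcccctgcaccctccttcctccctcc

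The Glrb region at -74 had a signal of 25.1 in sham, 22.1 after the lesion and 28.3 with NDST3, and the Gabbr1 region at -199 had 29.9, 29.6 and 35.6. The Glrb region at -269 had 30.2, 40.3 and 49.1, and the Gabbr1 regions at -409 and -577 had 41.2, 40.3 and 47.9 and 26.3, 35.5 and 53.6. Both mRNAs fell after the lesion, while the signal after the lesion was above sham in 1 region of each gene and below it in the others.

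ATAC-seq, which reads open chromatin, had 1 library per group and no replicate. It listed 6 member regions with a value in every group, out of 3537, at Grik1, Gabrr2, Grm8 (2 regions), Grin2b and Glra3. The largest difference was at Glra3, at -586 bases, with a signal of 10.3 in sham, 3 in the 6-OHDA library and 13.5 with NDST3. It was the 1 region at least 2-fold lower after the lesion (background 5.06%, and 0 higher against 4.58%) and the 1 region at least 2-fold higher with NDST3 than after the lesion (background 4.41%, and 0 lower against 3.53%). Glra3 mRNA was also lowest in the 6-OHDA library. Gabrr2 had 7.4, 6.5 and 3 and was the 1 region 2-fold lower with NDST3 than in sham (background 5.91%, and 0 higher against 8.37%). Grm8, whose mRNA fell 5.74-fold after the lesion, had 10.0, 18.5 and 14.9 at -833 and 2.85, 4.75 and 2.64 at -404.

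The scRNA-seq table gives a mean on a natural log scale for each of 9 clusters in 1 library of the 6-OHDA-induced PD model and 1 of the NDST3-treated PD model, so no test was made. It lists 50 of the 51 symbols, all but Gabrq. The median over the 10 neuron markers was 0.034 in cluster 2, its highest value in any of the 9 clusters. In cluster 2, where the median was 0.646 over astrocyte markers and 0.351 over oligodendrocyte markers, 19 of the 50 members exceeded 0.1 in at least 1 library, a share close to the 36.9% of all genes that did. Cluster 2 had the highest mean of the 9 for 36 of the 50 members and for 32.9% of the 26208 genes with a value above 0 in any cluster.

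In cluster 2, Grik2 stood at 0.623 after the lesion and 0.603 with NDST3, Gabbr1 at 0.497 and 0.477, Gabrb1 at 0.473 and 0.550, Gria4 at 0.467 and 0.423 and Gabrg3 at 0.405 and 0.461. Several of these members are known from astrocytes or oligodendrocyte precursors as well as from neurons. Gria1 stood at 0.377 and 0.268 there, a difference over 0.1, which 2 members and 714 of 26624 genes had in cluster 2. Gabra4 and Gabrd were not among the 19.

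**Figure D5:**
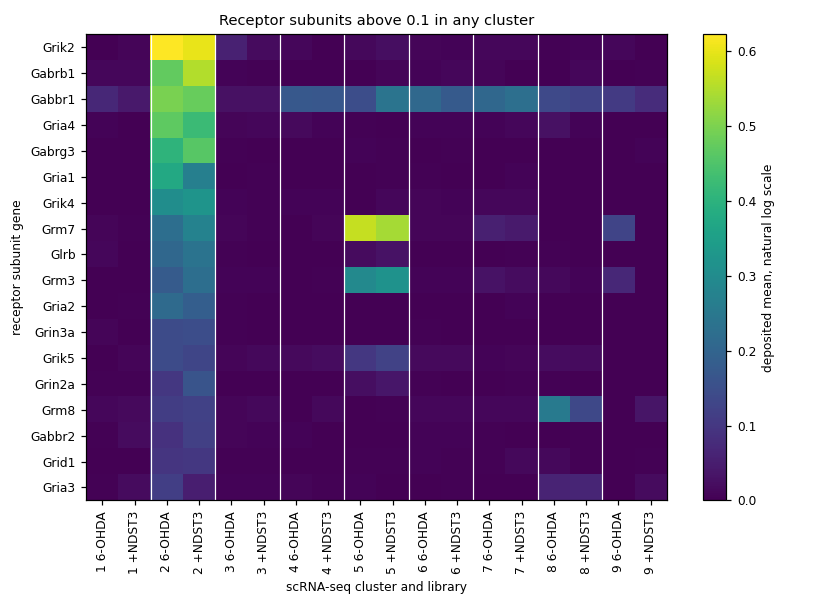
Deposited mean on a natural log scale (colour) of 18 of the 19 receptor subunits above 0.1 in any cluster (rows), for clusters 1 to 9 in the 6-OHDA and the 6-OHDA+NDST3 library (columns). Cluster 2 holds most of the signal, Grm7 and Grm3 stand out in cluster 5, Grm8 in cluster 8, and Gabbr1 in several clusters.

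Outside cluster 2, 5 members exceeded 0.1. In single clusters these were 0 to 4 of the 50 members, against 21.9% to 28.7% of all genes. Grm7 and Grm3 were higher in cluster 5, which is led by mural cell markers, than in cluster 2, at 0.568 and 0.538 for Grm7 and 0.293 and 0.318 for Grm3, and Grik5 reached 0.101 and 0.123 there. Grm8 stood at 0.257 after the lesion and 0.134 with NDST3 in cluster 8, which is led by T cell markers. In cluster 9, Grm7 stood at 0.127 after the lesion and 0.00226 with NDST3. A difference over 0.1 between the 2 libraries was found for 1 member in cluster 8 and 1 in cluster 9. Over all 26624 genes, 912 and 2150 had such a difference in these clusters. Gabbr1 exceeded 0.1 in clusters 4 to 9. Over the 47 members in both tables, the level in cluster 2 and the log2 fold change of bulk RNA-seq after the lesion had r = 0.18 and rho = 0.34, a description over genes that share their libraries. The 17 members above 0.1 in cluster 2 by their mean had a median bulk log2 fold change of -0.90 and the other 30 one of -1.001.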

How the data were processed

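RNA-seq was made from 5 libraries of mouse brain, H3K27ac CUT&RUN from 2 libraries per group, and ATAC-seq and scRNA-seq from 1 per group. For RNA-seq, the authors trimmed reads with Trimmomatic, aligned them with HISAT2 to mm10 and quantified genes with StringTie, and deposited read counts, FPKM and TPM per gene and library. The TPM values that the authors deposited were not tested. The library kit is stranded, and whether counting used strand is not given in the sources used here. For CUT&RUN and ATAC-seq, the authors deposited 1 tag signal per region and group, with a normalization that is not stated. For scRNA-seq, the authors deposited cluster means on a natural log scale, and 26 rows whose gene names had become dates were dropped. Against multiplets, the study removed cells above an upper limit on detected genes, no doublet caller is given in the sources used here, and none can be run on cluster means. Sham scRNA-seq is not analysed here. The submitters' processing notes also name Bowtie, Cell Ranger, Trim Galore and bcl2fastq.

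Counts were tested with edgeR 4.0.16 in R 4.3.3 (TMM, quasi-likelihood test over all 5 libraries, Benjamini-Hochberg adjustment over 19300 genes). Alternatives were limma 3.58.1 on log2 FPKM with a pseudocount of 1 or 0.1, DESeq2 1.42.0, other scalings, filters, a replicate block, fits of only the groups compared and leaving out each library. Further tables were made with pandas 2.3.3, numpy 2.4.6 and scipy 1.17.1 in Python 3.11.15, and figures with matplotlib 3.10.9. The fit was tested on simulated data. Signal ratios are log2 with a pseudocount of 1, in regions within 1000 bases of a gene start, with a value in every group and at least 1 in some group, and a region was called at 2-fold. Values in every library are given for up to 8 called members per direction with the largest change, the 3 with the largest where fewer than 3 passed, and the most abundant and least different subunit of each class. In partner lists, up to 3 called genes with the largest change are named, and others named were chosen after their values were seen. The members and lists were chosen with earlier results of these data known. Some members are counted in the totals and medians but are not reported here by name or plotted.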

Additional observations from a re-analysis of the deposited data

How the results depend on the processing

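Leaving out 1 library at a time gave 0 to 35 members lower and 0 to 2 higher after the lesion (32 and 0 with all libraries), 0 to 22 higher and 0 to 2 lower with NDST3 against the lesion (20 and 0), and 0 to 2 higher with NDST3 against sham. By the 2-fold rule, a choice made after seeing the data, the ranges were 16 to 24 lower and 0 to 2 higher after the lesion, 0 to 2 lower with NDST3 against the lesion, and 0 to 2 in each direction against sham. Partner genes ranged from 0 to 51 lower and 0 to 7 higher after the lesion, and from 0 to 32 higher and 0 to 5 lower with NDST3 against the lesion. Fewer libraries leave fewer degrees of freedom. Replicate numbers did not pair the samples (r = -0.432 between deviations of sham 1 and NDST3 1 over 19300 genes), and a replicate block gave 11 members lower after the lesion, 1 higher by the 2-fold rule, and 0 higher with NDST3. Crossed pairing, added after seeing the data, gave 35 lower after the lesion, 30 higher with NDST3 and, by the 2-fold rule against sham, 1 lower. Fitting only the groups compared gave 2 members higher after the lesion by either rule and 0 higher with NDST3, and DESeq2 gave 33. At 2-fold with raw p, 21 were lower after the lesion. With limma on log2(FPKM + 1), 13 were lower by that rule, and the medians were -0.79 and 0.72.

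Signs reversed as follows, and the cause was not tested. Grin2c after the lesion was 0.094 and 0.11 with limma. With NDST3 against the lesion, Gabra4, Gabrb1 and Gabrd were 0.68, 0.033 and 0.69 without NDST3 replicate 1 and -1.47, -0.089 and -2.82 without replicate 2, and Gabra4 and Gabrd 0.20 and 0.13 under crossed pairing. Against sham, Glra4 ranged from -1.12 without NDST3 replicate 1 to 1.08 without sham replicate 2 and was -0.17 without sham replicate 1, and Gabra4 and Gabrd were -0.16 and -0.92 without NDST3 replicate 2 and 1.98 and 2.58 without replicate 1. Scaled to all regions, the H3K27ac medians with NDST3 were -0.10 against the lesion and -0.013 against sham. At 1.5-fold, 13 H3K27ac regions were higher against sham, and in ATAC-seq 1 was higher after the lesion and 2 lower with NDST3 against it, where a pseudocount of 0.1 or median scaling gave 1. Above 0.2, 12 members were detected in scRNA-seq cluster 2.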
